A study of Mus musculus with 4 samples.

Results

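The Clca cluster of mouse chromosome 3 was examined peak by peak in single-cell ATAC-seq of old long-term hematopoietic stem cells (LT-HSCs), an assay that counts cuts of the Tn5 transposase in open chromatin. The cluster was taken as the bodies of 7 genes, Clca3a1, Clca3a2, Clca3b, Clca4b, Clca4a, Clca1 and Clca2, with 5000 bp upstream of each, and the stretches between them. It held 7 of the 93513 peaks in the table. The question was whether a difference in opening between the cells of the table was confined to Clca3a1 or shared by its neighbours.

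The study sorted LT-HSCs from the bone marrow of female C57BL/6JRj mice and compared old with young cells, and old cells that carried much or little of the CLCA3A1 protein on their surface, recognised by an antibody. The table used here is named in the labels of 2 samples, the CLCA3A1high and the CLCA3A1low fraction of old LT-HSCs (22 to 28 months), each pooled from 2500 cells of each of 4 mice. Samples of young mice (3 to 4 months) and of old mice (22 to 28 months) without the CLCA3A1 sort were not analysed here. There was 1 sample per group, and the 4 pooled mice cannot be told apart.

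The cells of the table carry barcode suffix 1 or 2, here called set 1 and set 2, and no label says which suffix belongs to which sample. All values are therefore given for the 2 sets without assigning either to CLCA3A1high or CLCA3A1low cells, and the opening of Clca3a1 was not used to do so. Set 1 held 818 cells and 13050952 counts (median 13358.5 per cell) and set 2 held 636 cells and 9820094 counts (median 12755.0), with 0 barcode sequences shared. Levels are CPM, the counts in a peak per 1000000 counts of the set. Intervals in parentheses are exact 95% intervals for counting error only: Poisson for CPM, Clopper-Pearson for shares of cells, and conditional binomial for the log2 ratio of set 1 over set 2. A difference between 2 such ratios is given with a 95% normal-approximation interval, also for counting error only. Cells are not replicates and 1 library is no group, so no p-value is given. Of the values above 0, 88.7% were even, since a fragment usually brings both of its ends, and the intervals are narrower than the true counting error. Counting each peak once per cell, given beside the main results, avoids this.

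CLCA proteins are named for calcium-activated chloride channels, but they are regarded as secreted or membrane-associated proteins that modulate such channels rather than as channel pores. Most members are known from epithelia, among them Clca1, a product of mucus-secreting goblet cells, whereas Clca3a1 is also known as a protein of lymphatic endothelium. In the mouse the family stands as a row of duplicated genes. The names have shifted over time: Clca3a1 was formerly called Clca1 (the sort protocol still uses that name), Clca3a2 was formerly called Clca2, and today's Clca1 was formerly called Clca3 or gob5.

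All 7 genes lie on the minus strand of chromosome 3 (GRCm38, GENCODE M21) and fill chr3:144729677-145104443, upstream parts included, a span of 375 kb. In order of position they are Clca3a1 (ENSMUSG00000056025.12, chr3:144729677-144760977), Clca3a2 (ENSMUSG00000028262.13, chr3:144796559-144819494), Clca3b (ENSMUSG00000037033.9, chr3:144822623-144849357), Clca4b (ENSMUSG00000074195.3, chr3:144910921-144932529), Clca4a (ENSMUSG00000068547.6, chr3:144952480-144975045), Clca1 (ENSMUSG00000028255.6, chr3:145003817-145032776) and Clca2 (ENSMUSG00000036960.10, chr3:145070263-145099443). Clca3a1 is the outermost gene on 1 side, so the other 6 genes all lie upstream of its start. Within coding sequence Clca3a1 and Clca3a2 were identical at 97.1% of aligned bases, Clca4b and Clca4a at 96.0%, and Clca3b and Clca3a1 at 86.7%. The remaining pairs, apart from Clca3a2 with Clca3b at 86.7%, ranged from 56.2% to 63.6%.

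The 7 peaks were spread unevenly over the genes. Clca3a1 held 3, one over its start, one in intron 6 and one on exon 13 of 14. Clca3a2 and Clca3b held 1 each, in both cases on exon 13 of 14, and Clca1 held 1, in intron 3. The seventh peak lay between Clca1 and Clca2. No peak overlapped Clca4b, Clca4a or Clca2 or their 5000 bp upstream, and the longest stretch without a peak, 201 kb, ran from exon 13 of Clca3b over both Clca4 genes into Clca1. A table of peaks holds no value for a stretch outside peaks, so the opening of these 3 genes was not measured rather than measured as 0. Only Clca3a1 had a peak within 1000 bp of an annotated start of a protein-coding transcript. The shortest distance from any such start of a gene to a peak was 3.53 kb for Clca3a2, 5.62 kb for Clca1 and 6.36 kb for Clca2. It was 23.8 kb for Clca3b, 51.7 kb for Clca4a and 94.2 kb for Clca4b. For Clca3a2 this start lies inside the gene, and the peak is the one on exon 13. The cluster was sparse beside its surroundings, with 1.87 peaks per 100 kb against 7.0 in the 500 kb before it and 3.6 in the 500 kb after it.

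Sequence of the peaks fell into a pattern that followed this layout. The stretch before the Clca3a1 start is shown because the largest difference within the cluster lay there. It is the 250 bases upstream of the RefSeq start, chr3:144760978-144761227 on the minus strand (RefSeq, GRCm38.p6), with the GATA word TGATAA in capitals, whose first base lies 27 bases before the start.
Clca3a1 upstream: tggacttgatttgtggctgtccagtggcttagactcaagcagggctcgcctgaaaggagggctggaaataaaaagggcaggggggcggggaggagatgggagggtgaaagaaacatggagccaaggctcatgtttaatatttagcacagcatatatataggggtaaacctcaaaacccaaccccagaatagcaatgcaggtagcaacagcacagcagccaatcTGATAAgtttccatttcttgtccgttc
The RefSeq promoter table matched 5 of the 7 genes, with Clca4a and Clca1 not matched. TGATAA, searched on both strands, stood in 7.94% of 32851 promoters of that length. The window held none of GAGGAAGT (PU.1), GAGGAA (the shorter PU-box), CATTCC (TEAD), AGATAA (the form of GATA factors), TGTGGT (RUNX) or TGACTCA and its reverse complement (AP-1). Among the 4 other matched upstream windows, Clca3a2 held AGATAA and Clca2 held GAGGAA at 2 places. Within these 250-base windows, the longest run of bases that Clca3a1 shared with any of them in the same orientation was 9. Clca3a2 and Clca3b shared 39. These values depend on where a window ends. The run atgcaaatattctgg, in the Clca3a2 and Clca3b windows, also stands in the Clca3a1 start peak, where the Clca3a1 window cuts it. Within 500 bp of the Clca3a1 start, 21.7% of 32-base words had an exact copy in the cluster, the same gene included. The short run therefore does not show that this upstream sequence is unrelated to that of its relatives.

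All 3 exon 13 peaks and the Clca1 intron 3 peak held the core of the CTCF motif, the site of the factor that marks insulators and loop anchors. It was searched on both strands as CCA, any 2 bases, AG, any 2 bases and GGC, a form chosen after the sequences had been seen. The 3 exon 13 peaks are shown because they are copies of each other, and the Clca1 intron peak because it holds the same core on the opposite strand. Each line gives the central 300 bp of a peak on the plus strand of GRCm38.p6 with the core in capitals. Also in capitals are AGATAA on the minus strand in Clca3a2 and TGTGGT on the minus strand in Clca1.
Clca3a1 exon 13 peak, chr3:144736900-144737199: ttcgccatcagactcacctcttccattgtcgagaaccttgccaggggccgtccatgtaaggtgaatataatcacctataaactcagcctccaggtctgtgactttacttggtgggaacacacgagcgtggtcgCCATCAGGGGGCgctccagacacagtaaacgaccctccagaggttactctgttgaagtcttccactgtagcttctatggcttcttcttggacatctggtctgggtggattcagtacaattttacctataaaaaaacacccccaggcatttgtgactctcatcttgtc
Clca3a2 exon 13 peak, chr3:144801943-144802242: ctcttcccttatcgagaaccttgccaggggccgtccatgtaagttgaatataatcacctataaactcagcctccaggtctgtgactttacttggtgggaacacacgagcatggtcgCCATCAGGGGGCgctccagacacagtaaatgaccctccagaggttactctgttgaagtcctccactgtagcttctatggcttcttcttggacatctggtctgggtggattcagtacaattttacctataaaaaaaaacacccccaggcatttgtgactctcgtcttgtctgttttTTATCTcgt
Clca3b exon 13 peak, chr3:144825203-144825502: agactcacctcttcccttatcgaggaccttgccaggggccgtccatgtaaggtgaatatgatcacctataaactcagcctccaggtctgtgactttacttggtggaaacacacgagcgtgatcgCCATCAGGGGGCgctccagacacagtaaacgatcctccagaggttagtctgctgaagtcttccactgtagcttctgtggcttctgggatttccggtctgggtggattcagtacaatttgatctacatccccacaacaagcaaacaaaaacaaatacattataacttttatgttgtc
Clca1 intron 3 peak, chr3:145026808-145027107: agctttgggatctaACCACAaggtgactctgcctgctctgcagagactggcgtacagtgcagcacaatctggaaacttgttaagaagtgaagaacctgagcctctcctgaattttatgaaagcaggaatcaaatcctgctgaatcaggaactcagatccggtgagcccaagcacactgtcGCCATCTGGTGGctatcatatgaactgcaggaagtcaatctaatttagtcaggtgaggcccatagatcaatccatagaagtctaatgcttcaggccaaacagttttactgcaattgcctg
Of the 6 central stretches described here, 4 thus held the core once, against 9.09% of all 93513 peaks in the table. It was absent from the whole of the Clca3a1 start peak and of the peak between Clca1 and Clca2. All 3 exon 13 copies carried it on the plus strand, opposite to the genes, and Clca1 on the minus strand. The exons themselves are coding and were identical at 234 of 240 bases between Clca3a1 and Clca3a2 (97.5%), at 221 of 237 between Clca3a1 and Clca3b (93.2%) and at 219 of 237 between Clca3a2 and Clca3b (92.4%). CATTCC was in none of these 6 stretches, and the peak between Clca1 and Clca2 held AGATAA at 2 places, GAGGAA and TGTGGT. These matches describe letters, and binding was not measured.

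Among the 7 cluster peaks, opening differed most between the sets at the Clca3a1 start. The start peak, chr3:144760541-144761718, covers exon 1, both annotated starts and the sequence upstream. It received 258 counts in set 1 and 52 in set 2, which is 19.8 CPM (17.4 to 22.3) and 5.30 CPM (3.95 to 6.94). The log2 ratio was 1.90 (1.47 to 2.36), or 3.73-fold, and 1.63 (1.00 to 2.30) with each peak counted once per cell. The 2 CPM intervals did not overlap.

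**Figure D1:**
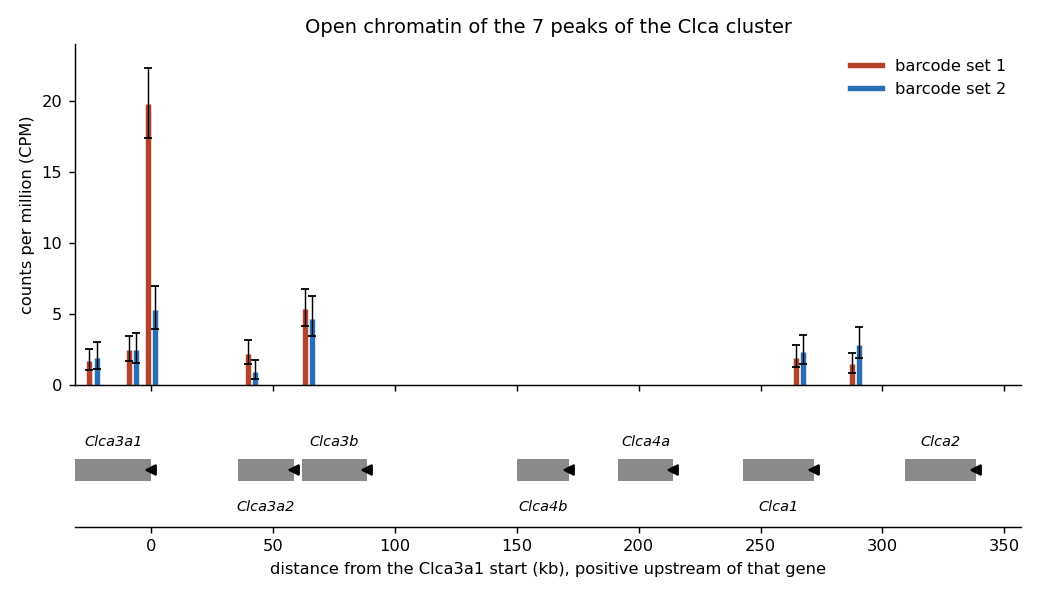
The upper panel plots CPM (y axis) of the 7 peaks in set 1 (red) and set 2 (blue) against distance from the Clca3a1 start in kb (x axis), with exact Poisson intervals, and the 2 bars of a peak are drawn side by side. Grey bars in the lower panel are the 7 genes and arrowheads mark their starts: the tall pair at 0 is the Clca3a1 start peak with 19.8 and 5.30 CPM, and all other peaks lie at or below 5.36 CPM.

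Within the body of Clca3a1 both peaks had intervals that held 0. The intron 6 peak, chr3:144753139-144753536, had 32 counts in set 1 and 24 in set 2, levels of 2.45 and 2.44 CPM with a log2 ratio of 0.00 (-0.80 to 0.83). In thinned cells, with a count in 5 and 6 cells, it was -1.42 (-3.32 to 0.26). On exon 13, chr3:144736877-144737223, there were 22 and 19 counts, 1.69 and 1.93 CPM and a log2 ratio of -0.20 (-1.15 to 0.77). Summed, the 2 gene-body peaks gave a log2 ratio of -0.08 (-0.69 to 0.53). The ratio of the start peak exceeded theirs by 1.98 on the log2 scale (1.26 to 2.70), and by 1.66 (0.65 to 2.67) once per cell. Over all 3 peaks the Clca3a1 locus had 23.9 CPM (21.3 to 26.7) in set 1 and 9.67 CPM (7.83 to 11.8) in set 2, so a sum over the locus, with a log2 ratio of 1.31 (0.97 to 1.65), mixes 1 peak that differed with 2 whose intervals held 0.

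Clca3a2, the closest relative of Clca3a1, had the other peak past 2-fold. Its exon 13 peak, chr3:144801911-144802275, had 29 counts in set 1 and 9 in set 2, or 2.22 CPM (1.49 to 3.19) and 0.916 CPM (0.419 to 1.74). The log2 ratio was 1.28 (0.16 to 2.54) over counts and 1.24 (-0.14 to 2.85) once per cell, from 19 and 6 cells, and the CPM intervals overlapped. It was 0.58 (-1.32 to 2.76) in thinned cells and 0.75 with 1 CPM added, both under 2-fold. The ratio therefore rests on few cells and is not separated from 0 when each cell is counted once. The same exon of the 2 neighbouring copies gave -0.20 in Clca3a1 and 0.20 in Clca3b. Summed over the Clca3a1 and Clca3a2 copies, between which a short read may not be placed uniquely, the counts were 51 and 28 with a log2 ratio of 0.45 (-0.24 to 1.17). Over all 3 copies they were 121 and 74, with 0.30 (-0.13 to 0.74).

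Clca3b had the second highest peak of the cluster. Its exon 13 peak, chr3:144825112-144825594, had 70 counts in set 1 and 46 in set 2. This peak also lies upstream of Clca3a2, its centre 5.86 kb before the outermost start of that gene. Levels were 5.36 CPM (4.18 to 6.78) and 4.68 CPM (3.43 to 6.25), with a log2 ratio of 0.20 (-0.36 to 0.76). In set 2 this peak and the Clca3a1 start peak stood at similar levels, 4.68 and 5.30 CPM with overlapping intervals, whereas in set 1 the Clca3a1 start was far above it. Per kb of peak, which allows for the greater width of the start peak, the Clca3a1 start had 16.8 CPM in set 1 and 4.50 in set 2, and the Clca3b peak 11.1 and 9.70.

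At the far end of the cluster the levels were low, and the Clca1 peak gave no clear direction. The peak between Clca1 and Clca2 was higher in set 2 over counts but was not separated from 0 once per cell. The Clca1 intron 3 peak, chr3:145026764-145027152, had 25 counts in set 1 and 23 in set 2, at 1.92 and 2.34 CPM, and a log2 ratio of -0.29 (-1.17 to 0.59). In set 2, 15 of its 23 counts came from 4 cells over 3 times the median depth, against 1 of 25 counts from such cells in set 1. Without these deep cells the log2 ratio was 1.2, and counted once per cell, in 14 and 9 cells, it was 0.21, so no direction can be read at Clca1. The peak between Clca1 and Clca2, chr3:145049852-145050181, had 19 and 28 counts, 1.46 CPM (0.877 to 2.27) and 2.85 CPM (1.89 to 4.12). Its log2 ratio was -0.97 (-1.89 to -0.08) over counts and -1.01 (-2.33 to 0.24) once per cell, from 10 and 15 cells.

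**Figure D2:**
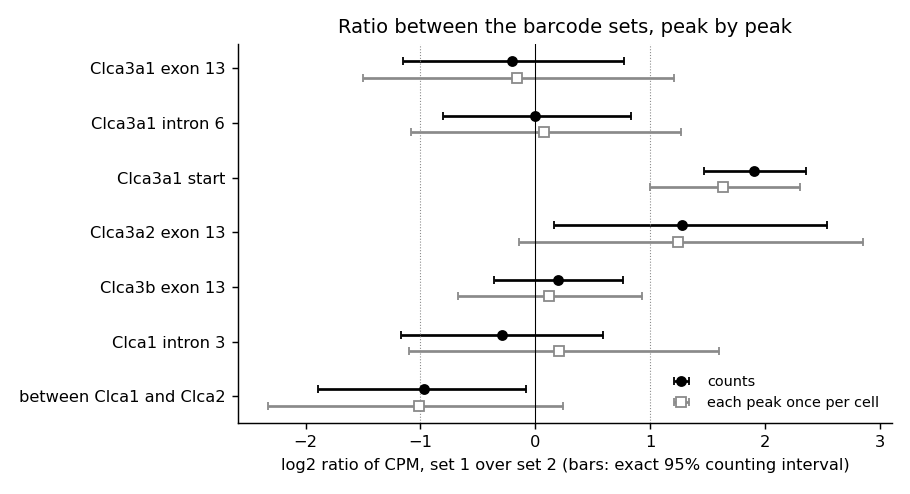
Log2 ratio of CPM, set 1 over set 2 (x axis), for each of the 7 peaks (y axis), with exact intervals, over counts (filled) and with each peak counted once per cell (open). Dotted lines mark 2-fold: only the Clca3a1 start peak, at 1.90 and 1.63, keeps its interval clear of 0 under both ways of counting.

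Set beside the other peaks of the cluster, the difference was concentrated at the Clca3a1 start. No other Clca gene had a peak within 1000 bp of a start, so this start was not compared with that of a neighbour. The 4 peaks outside the Clca3a1 locus summed to 143 counts in set 1 and 106 in set 2, 11.0 CPM (9.23 to 12.9) and 10.8 CPM (8.84 to 13.1), a log2 ratio of 0.02 (-0.35 to 0.40). Single ratios in this sum ranged from -0.97 between Clca1 and Clca2 to 1.28 at Clca3a2. All 6 peaks other than the start peak gave 15.1 and 15.2 CPM, a log2 ratio of -0.01 (-0.32 to 0.31). The start peak exceeded these 6 by 1.91 (1.38 to 2.44) over counts and 1.56 (0.81 to 2.31) once per cell. It took 56.7% (52.0 to 61.3) of the cluster's counts in set 1 and 25.9% (20.0 to 32.5) in set 2. The 4 peaks shown with the CTCF core summed to 11.2 and 9.88 CPM, with a log2 ratio of 0.18 (-0.20 to 0.57). At these depths a difference of the start's size was not seen in the sum of the other peaks, but a single peak with about 40 counts has an interval that spans 2-fold, and the Clca3a2 peak overlaps the range of the start peak.

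Peaks past 2-fold were common in the table, so the count of such peaks says little by itself. Among peaks with at least 20 counts, 2 of the 7 cluster peaks, the Clca3a1 start and Clca3a2 exon 13, were at least 2-fold higher in set 1, against 10.0% of 79625 peaks, and 0 of 7 were 2-fold higher in set 2, against 11.1%. The median log2 ratio was 0.00 over the cluster peaks and 0.02 over all. Promoter peaks, within 1000 bp of a protein-coding start, passed this rule less often: 2.92% of 16120 were at least 2-fold higher in set 1. They held a median of 597 counts over both sets against 118 for all peaks, so counting error alone moves them less. The 2 shares were not compared at equal counts. A ratio as high as that of the Clca3a1 start was reached by 78 of the 16120 promoter peaks, itself included (0.484%), and by 13 of the 5611 promoter peaks with 0.5 to 2 times its counts (0.232%). Among peaks of any kind it was reached by 1982 of 79625 (2.49%), and by 211 of the 22833 with 0.5 to 2 times its counts (0.924%). Its level was in the lower part of all promoters, since 67.3% of 16788 promoter peaks had at least as many pooled counts.

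**Figure D3:**
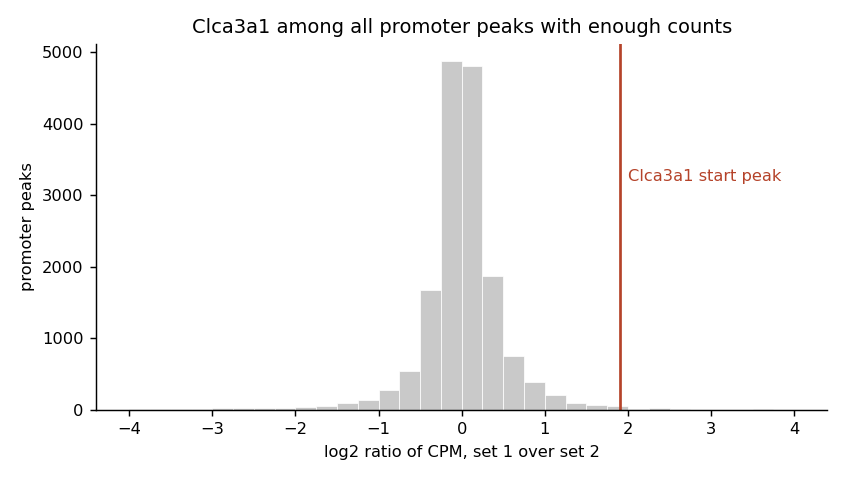
Histogram of the log2 ratio of CPM, set 1 over set 2 (x axis), over the 16120 promoter peaks with at least 20 counts (y axis, number of peaks per bin). The red line marks the Clca3a1 start peak at 1.90, in the thin right tail of a distribution whose median is 0.01.

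At the Clca3a1 start the sets differed mainly in the number of cells with a count. Most such cells held 1 fragment, so a difference in counts would show in this way however it is spread over cells. In set 1, 108 of 818 cells had a count in the peak, 13.2% (11.0 to 15.7), against 26 of 636 in set 2, 4.09% (2.69 to 5.93). Among cells with a count, 75.0% in set 1 and 88.5% in set 2 had exactly 2, what 1 fragment gives, and the mean per such cell was 2.39 and 2.00. Cells with a count were deeper than the rest, with medians of 19947.5 against 12491.0 counts in set 1 and 19514.5 against 12604.5 in set 2, so a cell without a count is not shown to be closed. In cells thinned to 4899 counts, the shares were 6.68% (4.99 to 8.71) of 749 cells and 2.14% (1.11 to 3.71) of 560, with 69 and 76 shallower cells left out. When cells were divided in 3 by depth, the shares were 5.58% and 1.85% in the shallowest, 11.2% and 3.52% in the middle and 23.1% and 6.79% in the deepest part, higher in set 1 in all 3.

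**Figure D4:**
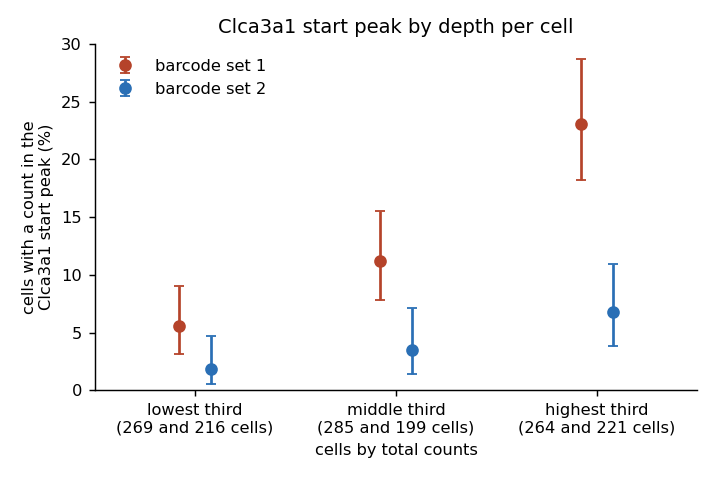
Percent of cells with a count in the Clca3a1 start peak (y axis) in 3 classes of counts per cell (x axis, with the number of cells of set 1 and set 2), for set 1 (red) and set 2 (blue), with exact Clopper-Pearson intervals. In both sets the share rises with depth, from 5.58% to 23.1% and from 1.85% to 6.79%, and set 1 lies above set 2 in each class.

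The other cluster peaks were found in similar shares of both sets. The 6 peaks without the start had a count in 11.7% (9.61 to 14.1) of set 1 cells and 11.2% (8.82 to 13.9) of set 2 cells, and in 5.21% and 5.18% of thinned cells. Of the 108 set 1 cells open at the Clca3a1 start, 5 also had a count in a gene-body peak of Clca3a1, 4.63% (1.52 to 10.5), against 24 of 710 cells not counted at the start, 3.38% (2.18 to 4.99). In set 2 these were 0 of 26, which allows a share of up to 13.2%, and 22 of 610, 3.61% (2.27 to 5.41). Any cluster peak outside the Clca3a1 locus had a count in 16 of the 108 set 1 cells with a start count, 14.8% (8.71 to 22.9), and in 8.03% (6.14 to 10.3) of the others, and in set 2 in 4 of 26 cells, 15.4% (4.36 to 34.9), and in 7.87% (5.86 to 10.3). Cells with a start count were deeper, as given above, and these shares were not compared at equal depth.

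Outside the cluster the flanks were nearly even in sum and uneven in single peaks. Over 500 kb on either side, 53 peaks gave 573 CPM in set 1 and 534 in set 2, a log2 ratio of 0.10 (0.05 to 0.15), with 0.01 (-0.05 to 0.07) before the cluster and 0.31 (0.22 to 0.41) after it. The start peak of Clca3a1 exceeded the flanks by 1.80 (1.37 to 2.23). The nearest peaks outside lay 5795 bp before the cluster, with 67 and 28 counts and a log2 ratio of 0.85 (0.19 to 1.54), and 1026 bp after it, with 41 and 26 counts and 0.25 (-0.50 to 1.01). The first of these, on the side of the Clca3a1 end, was thus also higher in set 1 over counts. Of the 48 flank peaks with at least 20 counts, 7 were past 2-fold higher in set 1 (14.6%, against 10.0% of all peaks) and 1 was past 2-fold higher in set 2 (2.08%, against 11.1%). Peaks past 2-fold thus lay outside the Clca genes too, at a share in set 1 near that of the whole table. The largest were a peak inside Col24a1, a collagen gene, with 65 and 4 counts and a log2 ratio of 3.61 (2.19 to 5.53), and a peak at -332 kb from the Clca3a1 start, beyond the Clca3a1 end, with 233 and 39 counts and 2.17 (1.67 to 2.70).

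The promoters of neighbouring genes differed little. The log2 ratio of promoter peaks was -0.22 (-0.35 to -0.09) at both Hs2st1 and Selenof, which share 1 promoter peak, -0.06 at Sh3glb1, the gene next to Clca3a1 and a membrane-shaping protein of apoptosis and autophagy, -0.17 at Odf2l, the gene next to Clca2, 0.34 (0.00 to 0.68) at Col24a1 and 0.01 at Znhit6. Gene loci ranged from -0.22 at Selenof to 0.52 (0.32 to 0.73) at Col24a1. None reached the 1.90 of the Clca3a1 start.

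**Figure D5:**
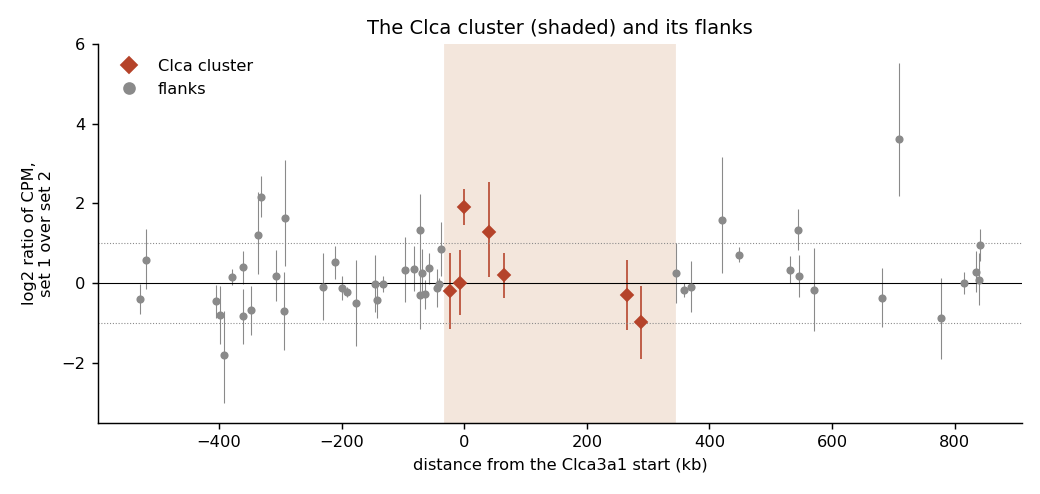
Log2 ratio of CPM, set 1 over set 2 (y axis), with exact intervals, against distance from the Clca3a1 start in kb (x axis), for the 7 cluster peaks (red diamonds, shaded span) and the 48 flank peaks with at least 20 counts (grey). The Clca3a1 start at 1.90 stands above the other cluster peaks, while single flank peaks reach 2.17 and 3.61.

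The anoctamins Ano1 to Ano10 and the bestrophins Best1 to Best3 were listed for comparison, families that include calcium-activated chloride channels elsewhere in the genome, among them Ano1, Ano2 and Best1, and also lipid scramblases such as Ano6. Of these 13 genes, 11 had loci with at least 20 counts. None was past 2-fold in either direction, and their median log2 ratio was -0.05, from -0.51 (-0.91 to -0.10) at Ano7 to 0.40 (-0.02 to 0.82) at Best3. Ano1, a channel pore of epithelia and smooth muscle, stood at -0.07 (-0.26 to 0.12). Ano3 had 10 and 2 counts, under the minimum, and Ano5 had no peak. The reference genes Gapdh and Actb both gave -0.06. By the likeness of the promoter ratio over the 2 sets alone, the nearest of 15169 genes were Egflam, Acsm5, Slc6a11, Dkk4 and Plcxd3, at 1.90 to 1.91, with 20 to 104 counts in set 1 and 4 to 21 in set 2.

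Marker genes described the cells in which these values were measured. Promoter peaks were present at 7 of 8 stem cell markers, with Ly6a the exception, and summed to 268 CPM in set 1 and 235 in set 2 (log2 ratio 0.19, 0.12 to 0.27). Endothelial markers, listed because Clca3a1 is a lymphatic endothelial gene, had peaks at 7 of 8, 114 and 116 CPM, a log2 ratio of -0.02 (-0.13 to 0.09). The members were spread around this sum, with log2 ratios from -0.85 at Cdh5, -0.45 at Pdpn, -0.38 at Pecam1 and -0.21 at Flt4 to 0.14 at Prox1, 0.15 at Emcn and 0.68 at Kdr, and Lyve1 had no promoter peak. Epithelial markers had peaks at 4 of 6, with 61.4 and 57.6 CPM, and log2 ratios of 0.42 at Krt8, -0.09 at Krt18, -0.39 at Cdh1 and -0.48 at Epcam. T cell markers had peaks at 0 of 4. Erythroid markers had 1 of 3 (Klf1, 0.29) and myeloid markers 4 of 4 (-0.09 in sum). The myeloid sum hid members that differed, with 0.17 at Elane, which had the most counts, -0.46 at Lyz2, -0.85 at Itgam and -1.41 at Mpo. An open promoter is not expression, and the part of other cells in the Clca values was not tested.

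Repeated sequence limits how far the Clca genes can be told apart. Of all 32-base words, about the length of a sequenced read, 50.5% of those in the Clca3a1 body had an exact copy elsewhere in the genome, as did 36.4% in Clca3a2, 35.0% in Clca3b, 30.1% in Clca4b and 27.0% in Clca4a, but only 4.52% in Clca1 and 3.31% in Clca2. Words with a copy inside the cluster, the same gene included, made up 33.9%, 34.6%, 24.8%, 23.4%, 23.1%, 0.622% and 0.367% in the same order. A word stands for 1 end of a fragment, and pairs of ends were not examined. Among the peaks the share of words with a copy anywhere in the genome was 28.2% for Clca3a1 exon 13, 24.9% for Clca3a2 exon 13, 18.3% for Clca3a1 intron 6, 16.0% for the Clca3a1 start, 6.19% for Clca3b exon 13 and 0 for the 2 peaks beyond. Each of these repeated words had a copy within the cluster, and whether it had further copies outside was not examined. Within 500 bp of the start, the share was 21.7% at Clca3a1 against 31.7% at Clca3a2, 22.9% at Clca4b, 28.8% at Clca4a, 3.92% at Clca1 and 0% at Clca2. Starts of both kinds, duplicated and nearly unique, thus lacked a peak. How the pipeline treated reads that fit several places was not examined, and at the duplicated genes fewer placed reads and less open chromatin cannot be told apart.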

How the data were processed

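The assay was single-cell ATAC-seq (10x Genomics) of LT-HSCs. The authors ran the cellranger-atac pipeline, and the submitters' processing notes name Cell Ranger ATAC 1.2.0 and the build mm10 (GRCm38). The deposited values are raw counts of cut sites per peak and cell barcode, with no normalization stated, and 1 list of peaks serves both barcode sets. Of 2 deposited tables, 1 was used: rows of the other carry no peak names, and it was not used here. No column of per-sample values was left unmapped (0). The 7 genes, the gene lists and the peak rule were chosen with earlier results of these data known.

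Counts were summed per barcode set, scaled to CPM and compared as log2 ratios without a pseudocount, in Python 3.11.15 with NumPy 2.4.6, SciPy 1.17.1, Biopython 1.88 and matplotlib 3.10.9. Peak starts, counted from 0 in the table, are printed as counted from 1. Differences between log2 ratios have normal-approximation intervals from counting error. The fold rule required 20 counts and 2-fold. Named were the 7 genes, every cluster peak, all protein-coding genes within 500 kb, the channel, reference and marker lists, and the 5 genes with the nearest promoter ratio. Further features were named after their values were seen, namely the 2 flank peaks with the highest ratios and the CTCF core. No cell was removed from the sums, and no doublet caller was run. The fold rule and intervals were tested on simulated data in which counts were drawn independently. That simulation left out the pairing of fragment ends, so it does not show that the intervals hold for these data. Thinning, count minimums, other scalings, windows and locus limits were tried as alternatives. The sequence of 1 cluster peak and the values of 1 marker list are not reported here.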

Additional observations from a re-analysis of the deposited data

How the results depend on the processing

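Of 103 alternative values for 25 results, 84 stayed inside the main counting interval or, for counts of peaks, within 1.5 times the main count, 19 moved and 0 reversed a ratio whose interval excluded 0. These values are not independent, so the tally is no measure of robustness. Clca3a2, Clca3b and Clca1 hold 1 peak each, so several values of the locus and of its peak are the same. Most locus limits also took in the same peaks as the main one. The Clca3a1 start peak kept its direction under every alternative run, with a log2 ratio from 1.63 (once per cell) to 1.90. In thinned cells the log2 ratio moved from 0.00 to -1.42 at the Clca3a1 intron 6 peak, to 0.80 at the Clca3b locus and to 1.17 at the Clca1 locus, and without cells over 3 times the median depth Clca1 stood at 1.2. These values rest on few cells, and the cause was not tested. With at least 50 counts, or with 1 CPM added, 1 peak was past 2-fold higher in set 1 in place of 2, the Clca3a1 start, and once per cell 1 peak, between Clca1 and Clca2, was past 2-fold higher in set 2 in place of 0. Thinning lowered the share of cells with a count by construction: at the Clca3a1 start to 6.68% in set 1 and 2.14% in set 2, and at the whole Clca3a1 locus from 16.1% to 7.74% and from 7.55% to 3.57%. The flanks gave 0.06 and 0.13 in windows of 250000 and 1000000 bp, against 0.10. No paired analysis was possible because each group is a single sample. Depth limits the 6 peaks other than the Clca3a1 start, each with 38 to 116 counts over both sets.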

Other observations

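Peaks with the CTCF core in their centre were compared with the rest, since 4 of the Clca cluster peaks described above hold it. Of 7752 such peaks with at least 20 counts, 8.19% were 2-fold higher in set 1 and 3.66% 2-fold higher in set 2, with a median log2 ratio of 0.17. Of the 71873 peaks without it, the shares were 10.2% and 11.9% and the median 0.00. These 4 Clca peaks, with log2 ratios of -0.29, -0.20, 0.20 and 1.28, had 1 peak past 2-fold, Clca3a2 exon 13. The comparison was chosen after the data were seen, was not made at equal counts per peak, on which such shares depend, and carries no test.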
